A study of Mus musculus with 6 samples.

Results

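Gpc1, Dst, Lamc1, Kcnj8, Fam78b, Phactr2, Plekhm3 and Nuak2 are 8 genes that are seldom studied in natural killer (NK) cells and whose RNA was higher in splenic NK cells carrying the receptor Ly49I than in those carrying Ly49G. They make up 8 of the 8520 genes in the deposited table, and all 8 were found in it. They were chosen by hand from the same 6 libraries, for being higher and even across the Ly49I+ libraries and for not being monocyte markers. The differences between the groups that follow are therefore a description of the choice, given without a test.

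Spleens of 20 C57BL/6Ncr mice, 6 to 8 weeks old, supplied the cells. NK cells, defined as CD3-negative and NK1.1-positive, were sorted by their receptors into cells with Ly49G but without Ly49C/I (Ly49G+ here) and cells with Ly49C/I but without Ly49G (Ly49I+ here), with 3 libraries each. A single antibody marked Ly49C and Ly49I together, so Ly49I+ cells can carry either receptor. The sources used here do not say how the mice were divided among the replicates, and SDs measure the spread between libraries. SEs come from a linear model (limma) that moves each gene's variance toward a trend over all genes. They are therefore not the spread of that gene's libraries alone.

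Ly49 receptors of C57BL/6 mice recognise MHC class I molecules, and each NK cell expresses some members of the family. NK cells also mature through a CD27+ stage and a later CD11b+ stage, in which receptors for migration and cytotoxic proteins rise. The 8 genes come from families better known from other tissues. Glypicans are heparan sulfate proteoglycans of the cell surface, laminins build basement membranes, and inward rectifier channels set the resting potential of muscle and vessel cells. Plakins and PHACTR proteins act on the cytoskeleton, NUAK kinases belong to the relatives of the energy sensor AMPK, and PLEKHM proteins act in the movement and fusion of lysosomes.

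Library totals ran from 33599679 to 40892154 reads. All 12 markers of the NK cell list were in the table, with a summed level of 15690 to 15960 CPM (counts per 1000000 reads) in Ly49G+ and 16150 to 16780 in Ly49I+ libraries. Of the 12, 2 passed in favour of Ly49I+ and 1 in favour of Ly49G+ (limma at an adjusted p of 0.05). The shares over all genes were 1.77% and 1.82%. The median log2 difference of the 12 was 0.03. Of 24 monocyte and macrophage markers 14 were in the table, and their summed level was 114.4 to 183.5 CPM in Ly49G+ libraries against 378.4 to 1517 in Ly49I+ libraries, with replicate 2 the highest. Of 12 T cell markers 7 were in the table, with a summed level of 363.9 to 433.4 CPM in Ly49G+ and 246.2 to 264.1 in Ly49I+ libraries. Of these 7, 5 passed in favour of Ly49G+ and 0 in favour of Ly49I+ (limma, a linear model fitted across all genes, at an adjusted p of 0.05), with a median log2 difference of -1.34, and 3 of the 5 entered the table through Ly49G+ only. Cd3e, a chain of the T cell receptor complex, stood at 13.1 CPM on average in Ly49G+ and 0.958 in Ly49I+ libraries. It had the largest difference of the 7 and was among those that entered through Ly49G+ only. Trbc1 (131.5 CPM in Ly49G+ and 113.2 in Ly49I+) and Trbc2 (41.9 and 32.9) did not pass. Of the endothelial, pericyte and fibroblast, and platelet lists only Pecam1, Tagln and Itgb3 were in the table, and none of the B cell, neutrophil and erythroid markers was. In bulk RNA, more cells with a transcript and more transcript per cell cannot be told apart.

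Upstream sequence is shown for the gene with the largest difference and for the genes with a match to the E-box or STAT motif, which most promoters lack. RefSeq windows of the 250 bases before a transcription start (GRCm38.p6) were at hand for 4 of the 8 genes, with 5 windows in all, 2 of them for Dst. Bases are in lower case, and capitals mark a match, on either strand, to the E-box CAGGTG bound by ZEB factors or to the STAT motif TTCNNNGAA. The windows are chr6:142571615-142571864 on the minus strand for Kcnj8, chr1:34011345-34011594 on the plus strand for 1 of the Dst starts, and chr1:64956825-64957074 on the minus strand for Plekhm3.
Kcnj8: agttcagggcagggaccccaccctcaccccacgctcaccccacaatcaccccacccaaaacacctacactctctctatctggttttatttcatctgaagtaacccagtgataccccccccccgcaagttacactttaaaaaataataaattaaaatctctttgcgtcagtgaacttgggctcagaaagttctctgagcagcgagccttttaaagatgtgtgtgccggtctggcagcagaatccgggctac
Dst: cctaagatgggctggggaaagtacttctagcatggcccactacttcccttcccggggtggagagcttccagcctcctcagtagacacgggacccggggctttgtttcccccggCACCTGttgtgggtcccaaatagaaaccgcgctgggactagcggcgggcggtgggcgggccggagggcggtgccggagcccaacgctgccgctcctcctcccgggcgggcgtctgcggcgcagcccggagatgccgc
Plekhm3: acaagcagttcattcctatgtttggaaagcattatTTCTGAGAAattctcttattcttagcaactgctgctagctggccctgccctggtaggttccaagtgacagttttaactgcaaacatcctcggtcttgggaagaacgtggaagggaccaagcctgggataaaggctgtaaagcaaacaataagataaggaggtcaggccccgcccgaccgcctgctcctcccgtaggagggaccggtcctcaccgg

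The Kcnj8 window held neither motif, had 49.2% G or C and 6 CpG pairs, while promoters of table genes had a median of 60% and 17 CpG pairs. Its Dst counterpart had 68.8% G or C and 22 CpG pairs, an E-box match starting 137 bases before the start (reverse complement, read as CACCTG), and 4 matches to the GC box GGGCGG. The E-box was found in 14.2% and the GC box in 59.1% of the 8741 windows of table genes. The Plekhm3 window had a STAT match starting 215 bases before the start, as 6.1% of windows of table genes did, and 1 GC box. The second Dst window and the Phactr2 window held no match. The T-box motif AGGTGTG, which shares letters with the E-box, the RUNX motif TGTGGT and the ETS motif CCGGAA were found in 3.5%, 11% and 25.0% of windows of table genes and in none of the 5. A match is a string of letters, not a measured binding site.

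The cell surface and matrix genes were Gpc1 and Lamc1. Gpc1 encodes glypican-1, a lipid-anchored heparan sulfate proteoglycan that binds growth factors (gene 14733, chromosome 1, 92831645 to 92860211, plus strand). In Ly49G+ replicates 1, 2 and 3 its level was 86.2, 84.7 and 87.3 CPM, and in the Ly49I+ replicates, in the same order, 140.0, 139.1 and 205.4 CPM. The Ly49G+ libraries were nearly level, Ly49I+ replicate 3 stood well above the other two, and the groups did not overlap. The means were 86.1 ± 1.31 and 161.5 ± 38.1 CPM (SD, n = 3 each), and the log2 difference of Ly49I+ minus Ly49G+ was 0.88 ± 0.13 (SE). Without Ly49I+ replicate 3 the difference was 0.70. Exons of Gpc1 overlap those of Ankmy1 on the other strand in the GENCODE M21 annotation, and the sources used here do not say whether reads were counted by strand.

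Lamc1 encodes the laminin gamma 1 chain, found in most laminins of basement membranes (gene 226519, chromosome 1, 153218922 to 153332786, minus strand). Its level was 13.0, 9.54 and 12.1 CPM in the Ly49G+ replicates and 19.2, 23.5 and 22.9 CPM in the Ly49I+ replicates. The lowest Ly49I+ library was 1.48-fold above the highest Ly49G+ library. The log2 difference was 0.93 ± 0.15, a fold of 1.90. None of the genes for the other laminin chains on the list was in the table, and no statement is made about them.

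Kcnj8 encodes a pore subunit of ATP-sensitive potassium channels, known from smooth muscle and pericytes (gene 16523, chromosome 6, 142564837 to 142571614, minus strand). It stood at 17.4, 16.4 and 11.7 CPM in the Ly49G+ replicates and at 60.6, 50.7 and 71.6 CPM in the Ly49I+ replicates. Every Ly49I+ library was far above every Ly49G+ library, and the lowest was 2.91-fold above the highest of the other group. Kcnj8 was the only one of the 8 past 2-fold, with a log2 difference of 2.02 ± 0.17, or 4.05-fold. The Ly49G+ library with the lowest value still held 434 reads, so counting error is small beside the spread.

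The cytoskeletal genes were Dst and Phactr2. Dst encodes dystonin, a very long plakin that ties cytoskeletal filaments to each other and to membranes (gene 13518, chromosome 1, 33907888 to 34308662, plus strand). Its level was 5.73, 4.83 and 5.86 CPM in the Ly49G+ replicates and 12.3, 11.2 and 9.01 CPM in the Ly49I+ replicates. All Ly49I+ libraries were above all Ly49G+ libraries, with Ly49I+ replicate 3 nearest to them. The log2 difference was 0.98 ± 0.20. Genes enter the table with 10 CPM or more in 2 or more libraries, and Dst had this only in 2 Ly49I+ libraries, so it entered the table through the group in which it is high. The other 7 reached 10 CPM in at least 2 libraries of each group. Dst has several starts and long isoforms, which a count per gene does not separate, and its exons overlap those of Gm26788 and A930005N03Rik on the other strand.

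Phactr2 encodes a protein that binds actin and protein phosphatase 1 (gene 215789, chromosome 10, 13207717 to 13474525, minus strand). Its level was 17.8, 20.5 and 18.5 CPM in the Ly49G+ replicates and 31.5, 34.8 and 26.4 CPM in the Ly49I+ replicates. The groups did not overlap, and the spread within Ly49I+ was the wider. The log2 difference was 0.70 ± 0.12, a fold of 1.62.

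Nuak2 encodes a kinase related to AMPK that is activated by LKB1 and known for acting on myosin phosphatase (gene 74137, chromosome 1, 132316125 to 132333488, plus strand). It had the smallest difference of the 8, at 21.0, 19.5 and 19.8 CPM in the Ly49G+ replicates and 25.2, 27.8 and 29.6 CPM in the Ly49I+ replicates. The lowest Ly49I+ library was 1.20-fold above the highest Ly49G+ library, the narrowest gap among the 8. The log2 difference was 0.45 ± 0.11, or 1.37-fold.

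Plekhm3 belongs to the PLEKHM family, whose members are known from lysosome transport and autophagy (gene 241075, chromosome 1, 64789120 to 64956824, minus strand). It stood at 41.5, 38.8 and 40.5 CPM in the Ly49G+ replicates and at 55.7, 63.2 and 53.9 CPM in the Ly49I+ replicates. Both groups were tight and did not overlap, and the log2 difference was 0.51 ± 0.09.

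Fam78b, which has no established function, is gene 226610 (chromosome 1, 166999851 to 167091302, plus strand). Its level was 9.81, 12.8 and 15.0 CPM in the Ly49G+ replicates and 18.8, 21.2 and 21.1 CPM in the Ly49I+ replicates. Here the wider spread lay within Ly49G+, with an SD of 2.59 against 1.40 CPM, and the groups did not overlap. The log2 difference was 0.72 ± 0.16, and 0.56 without Ly49G+ replicate 1, the lowest library.

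**Figure D1:**
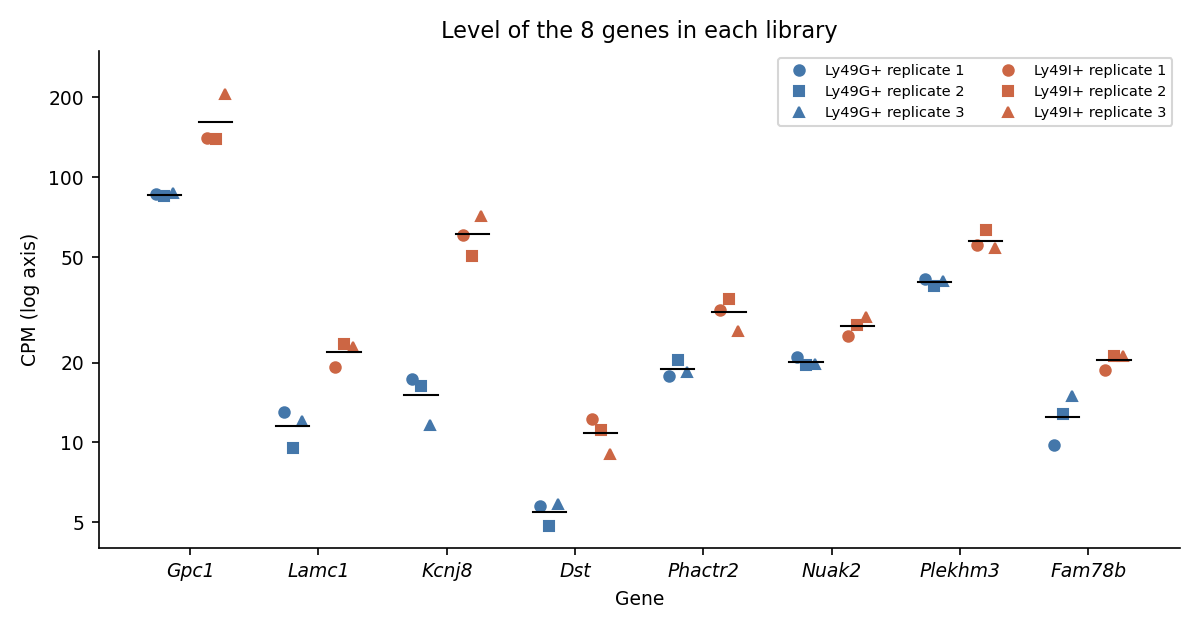
CPM of each of the 8 genes (log axis) in the 3 Ly49G+ libraries (blue) and the 3 Ly49I+ libraries (orange), with the replicate given by the marker shape and the group mean by a bar. The groups do not overlap for any of the 8 genes, and the gap is widest for Kcnj8 and narrowest for Nuak2.

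Over the 8 genes the median log2 difference was 0.80, while over all 8520 genes it was 0.016. All 8 had groups that did not overlap, as did 13.4% of all genes with Ly49I+ above. The genes were chosen from this contrast, so nothing is read from that count. For scale, 3.59% of all genes passed a limma test of the groups at an adjusted p of 0.05, 1.77% higher in Ly49I+ and 1.82% higher in Ly49G+, and the 151 genes called higher in Ly49I+ had a median log2 difference of 0.69.

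The 8 genes were not more even within Ly49I+ than other genes. Their median SD of log2 CPM across the Ly49I+ libraries was 0.18, against 0.14 over the 151 genes called higher in Ly49I+ and 0.13 over all genes. The SD ran from 0.10 for Fam78b to 0.32 for Gpc1. They did not share 1 high library: Ly49I+ replicate 2 was the highest Ly49I+ library for Lamc1, Phactr2, Plekhm3 and Fam78b, replicate 3 for Gpc1, Kcnj8 and Nuak2, and replicate 1 for Dst.

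Monocyte transcripts mostly shared 1 high library. Of the 14 measured monocyte and macrophage markers, 13 were highest in Ly49I+ replicate 2, and the median marker was 3.88-fold higher there than in the mean of the other Ly49I+ libraries. For the 8 genes that ratio lay between 0.77 for Kcnj8 and 1.20 for Phactr2. They were picked for being even across these libraries and outside the monocyte markers, so nothing is read from this range. The markers were also above Ly49G+ in the other Ly49I+ libraries: Ace, an enzyme gene of nonclassical monocytes, stood at 60.8, 201.3 and 44.8 CPM in the Ly49I+ replicates against 1.15, 1.20 and 4.87 CPM in the Ly49G+ replicates. Of the 14 markers 10 were called higher in Ly49I+ and 0 lower, with a median log2 difference of 3.90, but 10 of the 14, and 9 of those called, reached 10 CPM in 2 or more libraries only in Ly49I+ and so entered the table through that group. The part of monocyte transcripts in the differences of the 8 genes was not tested.

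**Figure D2:**
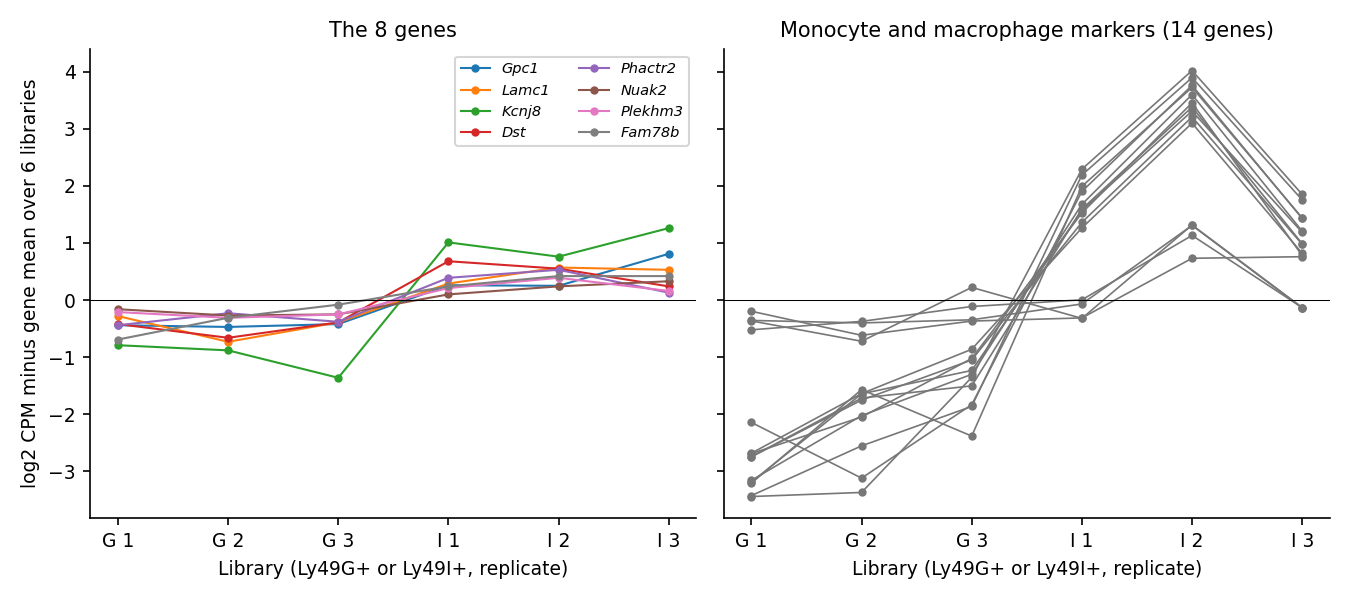
log2 CPM minus the gene's mean over the 6 libraries, for the 8 genes (left) and for 14 monocyte and macrophage markers (right), with lines joining the values of 1 gene. All but 1 of the markers peak in Ly49I+ replicate 2, while the 8 genes peak in different Ly49I+ libraries.

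Levels of different genes were compared only per kilobase of merged GENCODE M21 exon, which counts the exons of all annotated isoforms. In Ly49I+ cells the order was Gpc1 (31.3 ± 7.38 CPM per kb, SD, n = 3), Kcnj8 (23.9 ± 4.11), Nuak2 (7.02 ± 0.563), Plekhm3 (5.27 ± 0.452), Fam78b (3.22 ± 0.221), Phactr2 (2.64 ± 0.361), Lamc1 (2.64 ± 0.276) and Dst (0.263 ± 0.0405). Gpc1 overlapped Kcnj8 across libraries, Fam78b overlapped Phactr2, and Phactr2 overlapped Lamc1. In Ly49G+ cells the order was the same, but Kcnj8 (5.94 ± 1.20) there overlapped Nuak2 (5.13 ± 0.208) and was separate from Gpc1 (16.7 ± 0.254). Kcnj8 moved from the 29.5th to the 77.0th percentile of the table's genes per kb of exon, and Gpc1 from the 66.5th to the 83.4th. Lamc1 and Phactr2 stood at the 7.8th percentile in Ly49I+ cells, and Dst was at the bottom in both groups. Genes enter the table by CPM and not by CPM per kb, so a long gene near that floor falls low in this order. Dst has 41.2 kb of merged exon, against a median of 4.91 kb over all genes.

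Genes of the same families and pathways were not used in choosing the 8, and most did not pass the test. Their lists were written with earlier results of these libraries known, so the counts below are no independent evidence. Of 189 genes on 8 lists of relatives and partners, 90 were in the table, 3 were called higher in Ly49I+, 3 were called higher in Ly49G+ and 84 did not pass. Of the 3 higher in Ly49G+ 2 entered the table through Ly49G+ only. That is 6.67% called, against 3.59% of all genes, with a median log2 difference of 0.09 against 0.016. Unadjusted p was under 0.05 for 18 of the 90, while it was for 19.8% of all genes. With the replicate number as a block, which called 5.96% of all genes higher in Ly49I+ and 5.69% higher in Ly49G+, 15 of the 90 passed, 12 of them higher in Ly49I+. The number called fell to 1 on leaving out Ly49G+ replicate 1 or 3 and to 2 on leaving out replicate 2 of either group, stood at 4 without Ly49I+ replicate 3, and rose to 13 without Ly49I+ replicate 1.

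Around Gpc1, 2 of 19 measured genes of proteoglycans and heparan sulfate synthesis were higher in Ly49I+ and 0 were lower, with a list median of 0.14. None of the other glypican genes on the list was in the table. Hs3st3b1, which encodes an enzyme that sulfates heparan sulfate at the 3-O position, stood at 66.8, 67.5 and 72.9 CPM in the Ly49G+ and 98.1, 118.1 and 119.9 CPM in the Ly49I+ replicates. Its groups were separate (log2 difference 0.69 ± 0.09, limma adjusted p = 0.00295). Sdc4, which encodes the proteoglycan syndecan-4, rose from 10.6 ± 0.996 to 17.8 ± 2.15 CPM (0.75 ± 0.15, limma adjusted p = 0.0189), a call lost when any library but Ly49I+ replicate 1 was left out (adjusted p between 0.0537 and 0.0752). With the block Xylt1, which encodes the enzyme that starts heparan sulfate chains (0.81 ± 0.22, limma adjusted p = 0.0789, and 0.03 with the block), Ndst2 and Extl3 also passed. Xylt1 entered the table through Ly49I+ only.

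Around Lamc1, 0 of 4 measured genes of basement membrane and laminin receptors passed in limma, 1 with an unadjusted p under 0.05. Agrn, which encodes the matrix proteoglycan agrin, differed by 0.20 ± 0.16, the dystroglycan gene Dag1 by 0.14 ± 0.09, the integrin beta 1 gene Itgb1 by 0.02 ± 0.07 and the integrin alpha 6 gene Itga6 by -0.21 ± 0.08.

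Around Kcnj8, 2 of 5 measured potassium channel genes were called, both lower in Ly49I+. No other inward rectifier gene of the list, and neither gene for the sulfonylurea receptors that pair with Kcnj8, was in the table. Kcnk5, a background potassium channel gene, averaged 40.9 ± 3.42 CPM over the Ly49G+ and 29.8 ± 2.10 CPM over the Ly49I+ libraries (SD, n = 3 each; log2 difference -0.46 ± 0.10, limma adjusted p = 0.033). Kcnc1, a voltage-gated channel gene, stood at 16.0 ± 3.18 and 8.80 ± 1.49 CPM (-0.86 ± 0.19, limma adjusted p = 0.0354), and it was under 10 CPM in all 3 Ly49I+ libraries, so it entered the table through Ly49G+, where it is high. Both lost their call without Ly49G+ replicate 1, 2 or 3 or Ly49I+ replicate 2 (adjusted p between 0.0572 and 0.138), and Kcnk5 also without the intensity trend (0.0501). Kcna3, the main voltage-gated potassium channel of lymphocytes, differed by 0.11 ± 0.11.

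Of the 11 measured plakins and plakin partners on the Dst list 1 passed, in the opposite direction to Dst. Dsp, which encodes the plakin desmoplakin, was lower in Ly49I+, at 13.5, 12.2 and 14.9 CPM in the Ly49G+ and 7.29, 7.67 and 7.55 CPM in the Ly49I+ replicates (-0.85 ± 0.15, limma adjusted p = 0.0139). Dsp too entered the table only through the group in which it is high. It lost its call without Ly49G+ replicate 1 (adjusted p = 0.0635) or 3 (0.0756). Plec, the plectin gene, stood at 723.5, 571.1 and 698.4 CPM in the Ly49G+ and 845, 825 and 1302 CPM in the Ly49I+ replicates (0.55 ± 0.16, limma adjusted p = 0.0959, and 0.00255 with the block). It also passed without Ly49I+ replicate 1 (0.0343). Macf1, the plakin gene closest in build to Dst, overlapped between the groups at 3403 to 5514 CPM in Ly49G+ and 3815 to 5292 CPM in Ly49I+ libraries.

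None of the measured family members of Phactr2, Plekhm3 and Fam78b passed, and Nuak1 was not in the table. Phactr3 differed by 0.13 ± 0.11 and Phactr4 by 0.10 ± 0.10, and 0 of 12 measured genes of the PHACTR, phosphatase and SRF list passed in limma, 0 of them with an unadjusted p under 0.05. Of 18 AMPK-related kinases and partners of LKB1 0 passed in limma and 1 had an unadjusted p under 0.05, namely Camkk2, a calcium-dependent kinase of AMPK (0.50 ± 0.13, limma adjusted p = 0.0604, and 0.016 with the block). Plekhm1 differed by 0.15 ± 0.09 and Plekhm2 by 0.15 ± 0.15. Of the 22 genes on their lysosome list 1 passed, Vps11 of the tethering complexes (0.36 ± 0.09, limma adjusted p = 0.0455), and it kept its call with Ly49I+ replicate 1 left out but not with any other library left out, nor without the trend or with low genes (mean log2 CPM under 4) removed (adjusted p between 0.0506 and 0.213). Fam78a, the only paralog of Fam78b on the list, differed by -0.09 ± 0.10 (limma adjusted p = 0.63).

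**Figure D3:**
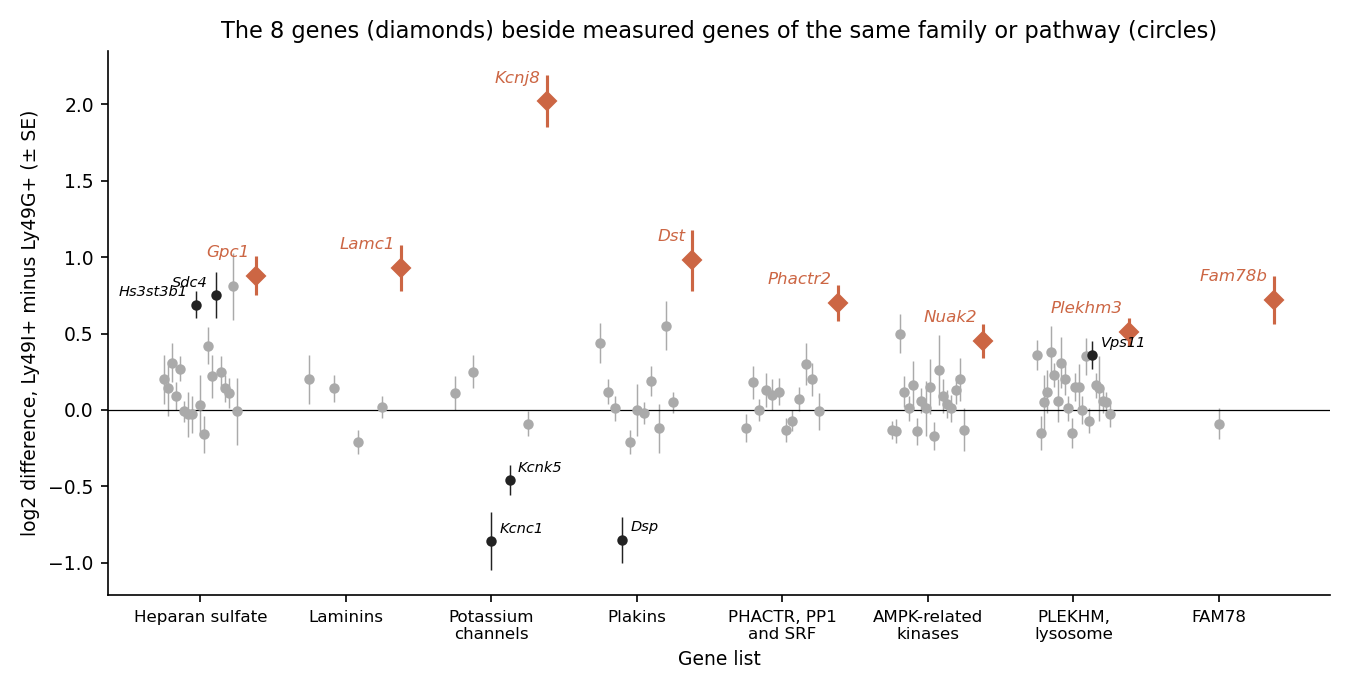
log2 difference of Ly49I+ minus Ly49G+ (± SE) for the 8 genes (diamonds) and the measured genes of each list (circles, black and named where limma called them). Most circles lie near 0, and Dsp, Kcnk5 and Kcnc1 lie opposite to the member of their list.

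By position, 6 of the 8 genes lie on chromosome 1, which holds 506 of the 8427 table genes with a position (6.00%), and Kcnj8 and Phactr2 lie on chromosomes 6 and 10. With these 6 kept, 11 of the 506 were called higher in Ly49I+, against 1.77% of all genes. On the same chromosome 17 of the 506 were called higher in Ly49G+, against 1.82% of all genes. Without the 6 it was 5 of the other 500 (1.00%) for Ly49I+. The 6 were chosen for their difference, so neither count for Ly49I+ is read as a result about the chromosome. The Ly49G+ count was not tested against the other chromosomes and is not read as one either. Gene spans were long, with a median of 102.7 kb over the 8 and 24.6 kb over all genes, from 6.78 kb for Kcnj8 to 400.8 kb for Dst.

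For each of the 8 the 2 nearest table genes on each side were taken, which gave 32 genes, none of them among the 8. Of these 0 were called by limma, against 3.59% of all genes, and 4 had an unadjusted p under 0.05, against 19.8% of all genes, with a median log2 difference of 0.04 and a range from -0.22 to 0.80. With the replicate block 2 of the 32 passed, against 11.7% of all genes. With so few neighbours, nothing particular to them is read from these counts. Idh1, the cytosolic isocitrate dehydrogenase gene 201.8 kb from Plekhm3 on chromosome 1, was 1 of them (0.80 ± 0.23, limma adjusted p = 0.0852, and 0.0239 with the block), and it entered the table through Ly49I+ only. Without Ly49I+ replicate 3, 2 of the 32 were called. The 4 neighbours of Kcnj8, Recql, Golt1b, Cmas and C2cd5, differed by 0.07, 0.09, 0.17 and -0.14.

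**Figure D4:**
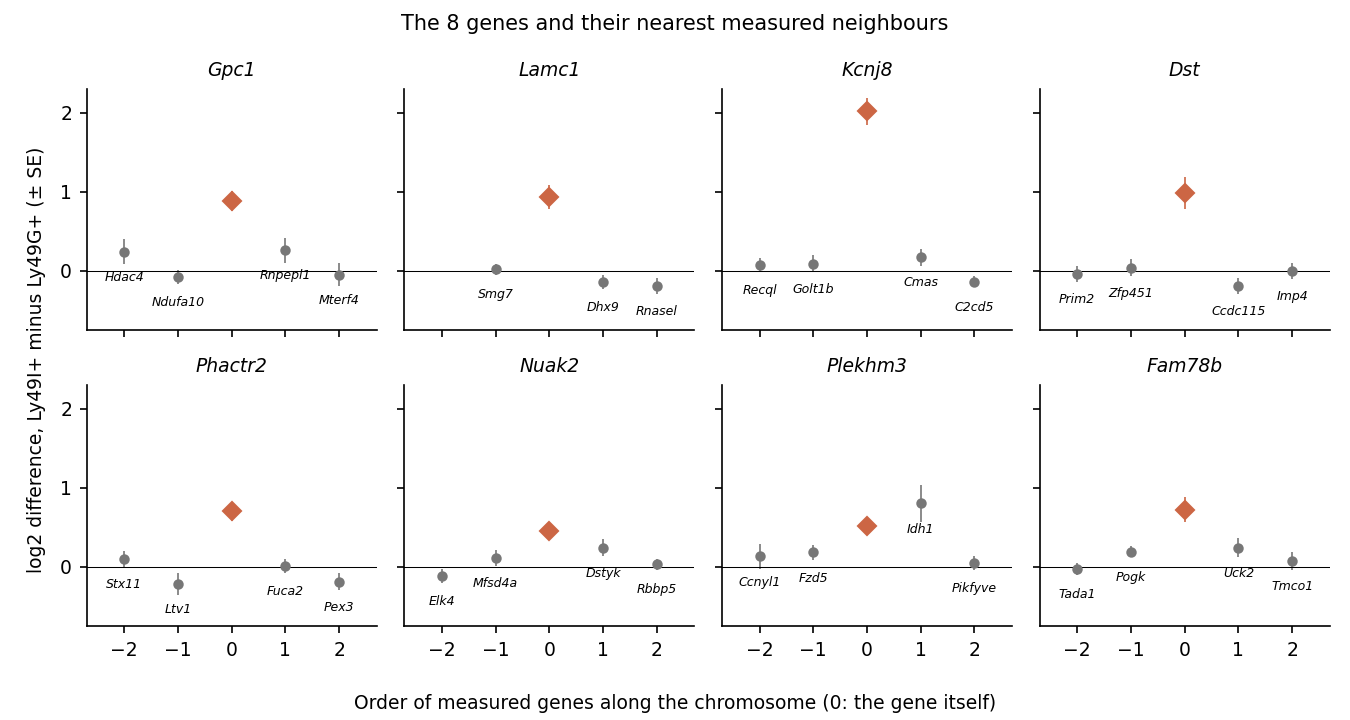
log2 difference of Ly49I+ minus Ly49G+ (± SE) for each of the 8 genes (diamond, position 0) and the 2 nearest table genes on each side (circles; 1 neighbour is not drawn). None of the neighbours drawn passed the limma test, and Idh1 lies highest among them.

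Likeness was measured as the root mean square distance between log2 profiles over the 6 libraries, each centred on its own mean. Nearest to the mean profile of the 8 were Klrb1b, an inhibitory lectin receptor gene of NK cells (distance 0.092), the metalloproteinase inhibitor gene Timp2 (0.097), the zinc transporter gene Slc39a13 (0.121), Dennd5a (0.123), Hs3st3b1 (0.129) and Cpne7 (0.135). Klrb1b stood at 189.5, 197.7 and 218.2 CPM in the Ly49G+ and 375.8, 428.8 and 379.1 CPM in the Ly49I+ replicates. Taken singly, Nuak2 was nearest to the granzyme B gene Gzmb (distance 0.026), Plekhm3 to Cyfip1 (0.029), Fam78b to Gna15 (0.090), Phactr2 to Cpd (0.093), Gpc1 to the chemerin receptor gene Cmklr1 (0.100), Lamc1 to Rac3 (0.109), Dst to Myo5a (0.146) and Kcnj8 to the fractalkine receptor gene Cx3cr1 (0.206). All genes with a like difference between the groups score well here, and the points share their libraries.

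Gzmb, Cmklr1 and Cx3cr1 are on the list of the CD11b+ stage of NK maturation, of which 17 of 24 measured genes were higher in Ly49I+ and 1, S1pr1, was higher in Ly49G+, with a median log2 difference of 0.43. On the list of the earlier CD27+ stage 16 of 22 genes were higher in Ly49G+ and 0 in Ly49I+, with a median of -0.63. Over all genes 1.77% were called higher in Ly49I+ and 1.82% higher in Ly49G+. Of the 17, 1 entered the table through Ly49I+ only, and of the 16, 1 through Ly49G+ only. The count of 17 was between 7 and 10 without any 1 of the Ly49G+ replicates or Ly49I+ replicate 2. The count of 16 was 9 without Ly49G+ replicate 2 and 10 without Ly49G+ replicate 3. These lists were written with earlier results of these libraries known and are no independent evidence of their direction. The markers of other cell types moved alongside: the T cell markers had a median of -1.34 with 5 of 7 higher in Ly49G+, and the monocyte markers a median of 3.90 with 10 of 14 higher in Ly49I+. Their part in the counts of both maturation lists was not tested. Whether the 8 genes follow the maturation stage of the cells was not tested.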

How the data were processed

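RNA (0.4 µg per library) went through a stranded total RNA kit and was read as pairs of 100 bases, per the labels' protocols. CASAVA 1.8.2, STAR 2.3.0, limma and build mm10 are named in the submitters' processing notes. The sources used here do not name the read counter, its strand setting or the annotation. The authors deposited log2 CPM values for 8520 genes by NCBI gene number. The values follow limma's voom formula (0.5 added to each count, 1 to the total), and solving it gave whole reads for 100% of values within 0.001 read. RefSeq (GRCm38.p6) named 8429 genes.

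The test was limma (version 3.58.1, R 4.3.3; intensity trend, two-sided, Benjamini-Hochberg over all genes at 0.05). It was also run on simulated counts with independent libraries and the same dispersion (spread beyond counting error) for every gene. That simulation held no library effects, so it does not show how the test behaves with the spread of these libraries. Python 3.11.15, pandas 2.3.3 and matplotlib 3.10.9 made tables and plots. The 8 genes and all lists were chosen with earlier results of these data known. Named are the 8 genes, their measured family members, up to 4 called genes per list, called neighbours and the 6 nearest profiles. Ace, Cd3e, Idh1, Xylt1, Ndst2, Extl3, partners of Lamc1, Kcna3, Camkk2, S1pr1, Pecam1, Tagln, Itgb3, the neighbours of Kcnj8 and the nearest gene of each of the 8 were named after their values were seen. The values of 1 neighbouring gene are not reported here.

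Same-numbered libraries deviated together from their group means (r over all genes 0.371, 0.114 and 0.156 for replicates 1, 2 and 3), which meets the rule used (each above 0.1), so the replicate number was also fitted as a block. Differently numbered libraries ranged from -0.495 to 0.359, the highest being Ly49G+ replicate 3 with Ly49I+ replicate 2, so the numbers do not single out the closest libraries.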

Additional observations from a re-analysis of the deposited data

How the results depend on the processing

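With the replicate block 993 genes were called in place of 306, 15 in place of 6 related genes and 2 in place of 0 neighbours. The block leaves the differences of the 8 genes as they are. Leaving out 1 library at a time gave 94 (without Ly49G+ replicate 2) to 644 (without Ly49I+ replicate 1) called genes, 1 to 13 related genes, 7 to 17 higher CD11b+ stage genes, 9 to 17 lower immature stage genes and 0 to 2 neighbours. Leaving out a library also leaves fewer samples in the test. Without the intensity trend 9 CD11b+ stage genes were called, and with genes of a mean log2 CPM under 4 removed, which tests fewer genes, 2 related genes. By Pearson correlation in place of distance, 0 of the 6 genes most like the 8 were the same; the cause was not tested, beyond that correlation leaves out the size of a difference. The log2 differences of the 8 genes stayed within 1 SD of the replicates under median centring, quantile normalization, a pseudocount of 2 reads and each library left out, with ranges for the last of 0.70 to 0.98 for Gpc1, 0.80 to 1.02 for Lamc1, 1.84 to 2.14 for Kcnj8, 0.88 to 1.10 for Dst, 0.61 to 0.81 for Phactr2, 0.40 to 0.51 for Nuak2, 0.44 to 0.56 for Plekhm3 and 0.56 to 0.86 for Fam78b. In Ly49G+ counting error alone gives an SD of log2 CPM of 0.10 for Dst (195 reads on average), where the libraries' SD was 0.15. For Nuak2 in Ly49G+ it gives 0.05 beside 0.06, and for Gpc1 in Ly49G+ 0.03 beside 0.02, which are of like size. The libraries' SD was far above counting error for Kcnj8 (0.31 beside 0.06) and Fam78b (0.31 beside 0.07) in Ly49G+. The same held for Gpc1 in Ly49I+ (0.32 beside 0.02).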
